A study of Homo sapiens with 12 samples.

Results

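The 9 genes described here are *ACACA* (ENSG00000278540_at), *FASN* (ENSG00000169710_at), *ACLY* (ENSG00000131473_at), *SCD* (ENSG00000099194_at), *FADS1* (ENSG00000149485_at), *FADS2* (ENSG00000134824_at), *ELOVL6* (ENSG00000170522_at), *DGAT2* (ENSG00000062282_at) and *SREBF1* (ENSG00000072310_at), the enzymes and the transcription factor of fatty acid synthesis, measured in MM.1S cells, an established human multiple myeloma line that is sensitive to glucocorticoids. They were chosen by their Ensembl identifiers, and all 9 were found among the 17710 probe sets (1 gene each) of the array. Untreated cells (Control) were compared with cells given PIM447, an inhibitor of the PIM kinases, at 100 nM for 24 h (PIM), with cells given pomalidomide at 200 nM together with dexamethasone at 5 nM for 15 h (Pd), and with cells given all 3 drugs at those doses for 10 h (PIM-Pd). Pomalidomide binds cereblon and redirects it to lymphoid transcription factors, and dexamethasone activates the glucocorticoid receptor. Each group held 3 arrays from 3 independent experiments, so the 12 arrays share the cell line and the medium. The treatments were sublethal, with a viability of 74 to 81% per the labels. Drug and exposure time cannot be told apart in these groups, because the 3 treated groups were exposed for 3 different times. No time is given for the Control cells.

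Fatty acid synthesis starts from citrate. ATP citrate lyase (ACLY) splits it to cytosolic acetyl-CoA, acetyl-CoA carboxylase 1 (ACACA) turns acetyl-CoA into malonyl-CoA in the committed step, and fatty acid synthase (FASN) builds palmitate from both. ELOVL6 lengthens palmitate, stearoyl-CoA desaturase (SCD) sets the first double bond, FADS1 and FADS2 desaturate polyunsaturated chains, and DGAT2 joins an acyl chain to diacylglycerol to give triglyceride. *SREBF1* encodes SREBP-1, a transcription factor held in the endoplasmic reticulum membrane and released by proteolysis, which drives the genes of this pathway. Its RNA level is therefore not a measure of its active form. In myeloma cells, which secrete large amounts of immunoglobulin, the pathway also supplies membrane lipid.

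The upstream promoter sequences of *ACACA*, *ACLY* and *SCD* are shown because these genes fell together in the triple combination, with that of *SREBF1*, which was not called in any comparison, beside them. RefSeq promoter windows (250 bases before to 50 after an annotated start) were found for 7 of the 9 genes, in 11 windows, and not for *FASN* and *DGAT2*. Each line gives the 250 bases before the start, 5′ to 3′ on the strand of the gene, and capitals mark the NF-Y box CCAAT and the GC box GGGCGG on either strand (ATTGG and CCGCCC when reversed). *ACACA* has 3 annotated starts, of which 2 are shown, and its single probe set does not tell them apart.
ACACA, GRCh38.p14, chr17:37299768-37300017, minus strand: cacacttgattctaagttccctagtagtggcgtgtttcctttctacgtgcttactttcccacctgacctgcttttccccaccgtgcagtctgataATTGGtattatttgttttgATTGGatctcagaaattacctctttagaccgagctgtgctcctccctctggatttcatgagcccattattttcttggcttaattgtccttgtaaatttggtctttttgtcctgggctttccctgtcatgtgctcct
ACACA, GRCh38.p14, chr17:37359097-37359346, minus strand: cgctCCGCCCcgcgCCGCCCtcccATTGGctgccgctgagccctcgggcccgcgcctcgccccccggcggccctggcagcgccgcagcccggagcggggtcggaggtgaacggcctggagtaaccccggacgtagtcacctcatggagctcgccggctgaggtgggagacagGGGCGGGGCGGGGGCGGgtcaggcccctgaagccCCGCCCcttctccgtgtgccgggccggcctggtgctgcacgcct
ACLY, GRCh38.p14, chr17:41918952-41919201, minus strand: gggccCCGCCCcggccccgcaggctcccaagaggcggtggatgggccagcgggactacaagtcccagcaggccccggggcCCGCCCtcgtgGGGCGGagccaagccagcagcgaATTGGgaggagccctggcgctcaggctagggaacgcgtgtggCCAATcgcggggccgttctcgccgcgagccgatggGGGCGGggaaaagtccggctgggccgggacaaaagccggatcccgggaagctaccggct
SCD, GRCh38.p14, chr10:100346983-100347232, plus strand: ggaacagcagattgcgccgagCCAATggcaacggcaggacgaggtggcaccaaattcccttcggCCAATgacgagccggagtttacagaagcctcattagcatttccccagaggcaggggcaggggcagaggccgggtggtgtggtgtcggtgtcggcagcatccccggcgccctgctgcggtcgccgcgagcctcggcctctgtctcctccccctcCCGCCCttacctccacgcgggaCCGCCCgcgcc
SREBF1, GRCh38.p14, chr17:17836987-17837236, minus strand: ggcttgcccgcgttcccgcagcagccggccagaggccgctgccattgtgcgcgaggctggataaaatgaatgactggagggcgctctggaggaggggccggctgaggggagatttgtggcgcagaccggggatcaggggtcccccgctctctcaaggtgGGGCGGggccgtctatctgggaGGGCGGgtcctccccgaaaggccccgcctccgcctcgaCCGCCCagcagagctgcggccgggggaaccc

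The *SCD* window held 2 NF-Y boxes, the *ACLY* window 2, and the *ACACA* windows 2 and 1, and the *SREBF1* window held none. The window of the third *ACACA* start, not shown, also held none, with 6 GC boxes, and is included in the counts below. Over whole windows, overlapping matches included, an NF-Y box was found in 6 of the 11 windows (of *ACACA*, *ACLY*, *SCD* and *FADS2*), against 34.6% of all 35116 promoter windows of the same length. The *ACLY* windows overlap each other and share their 2 boxes, and the box of *FADS2* lay 5 bases after the start. A GC box was found in 9 of the 11 windows, against 45.0% of all windows. The 11 windows are not independent, as some genes have several. Counted by gene, an NF-Y box was found in 4 of 7 genes, against 39.7% of all genes with a window. A GC box was found in 7 of 7, against 48.3%. The SREBP site TCACNCCAC and the E-box CACGTG were found in none of the 11 windows, against 1.1% and 7.3% of all windows. These matches describe letters in a short window and are not binding sites.

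The median log2 signals of the arrays lay between 4.81 and 4.89. The deposited signals were already quantile normalized, so close medians do not show array quality. Each array correlated with the other arrays of its group at a mean r of 0.987 to 0.993 over all probe sets. This r was 0.9916 to 0.9926 for the Control and Pd arrays and 0.9867 to 0.9885 for the PIM and PIM-Pd arrays. Of the plasma cell markers, *CD38*, *IRF4* and *SLAMF7* could be examined, and their mean signals stood at percentiles 93.5, 97.4 and 98.0 of all probe sets, a coarse check because probe sets differ in affinity. The T cell marker *CD3E* stood at percentile 41.1 and *NCAM1*, an NK cell marker that myeloma cells can also carry, at percentile 74.2. *NCAM1* was higher than Control by 1.38 in Pd and by 0.64 in PIM-Pd, *IRF4* differed by -1.10 and -1.12 and *CD38* rose by 0.42 in PIM-Pd, and the part of these changes in the results below was not tested. *TSC22D3* and *FKBP5*, classic glucocorticoid targets, were 5.62-fold and 3.31-fold above Control with Pd and 7.05-fold and 3.47-fold with PIM-Pd (limma adjusted p between 1.42e-06 and 7.59e-05). Of the other 3 glucocorticoid targets named, *DDIT4* rose by 4.02 and 3.96 on the log2 scale, *KLF9* differed by 0.32 in Pd (adjusted p = 0.284) and rose by 0.55 in PIM-Pd, and *SGK1* differed by -0.59 and -0.51 (adjusted p = 0.232 and 0.276). RNA from 1 cell line in bulk was measured, so a lower signal does not tell less RNA per cell from fewer cells that express a gene.

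**Figure D1:**
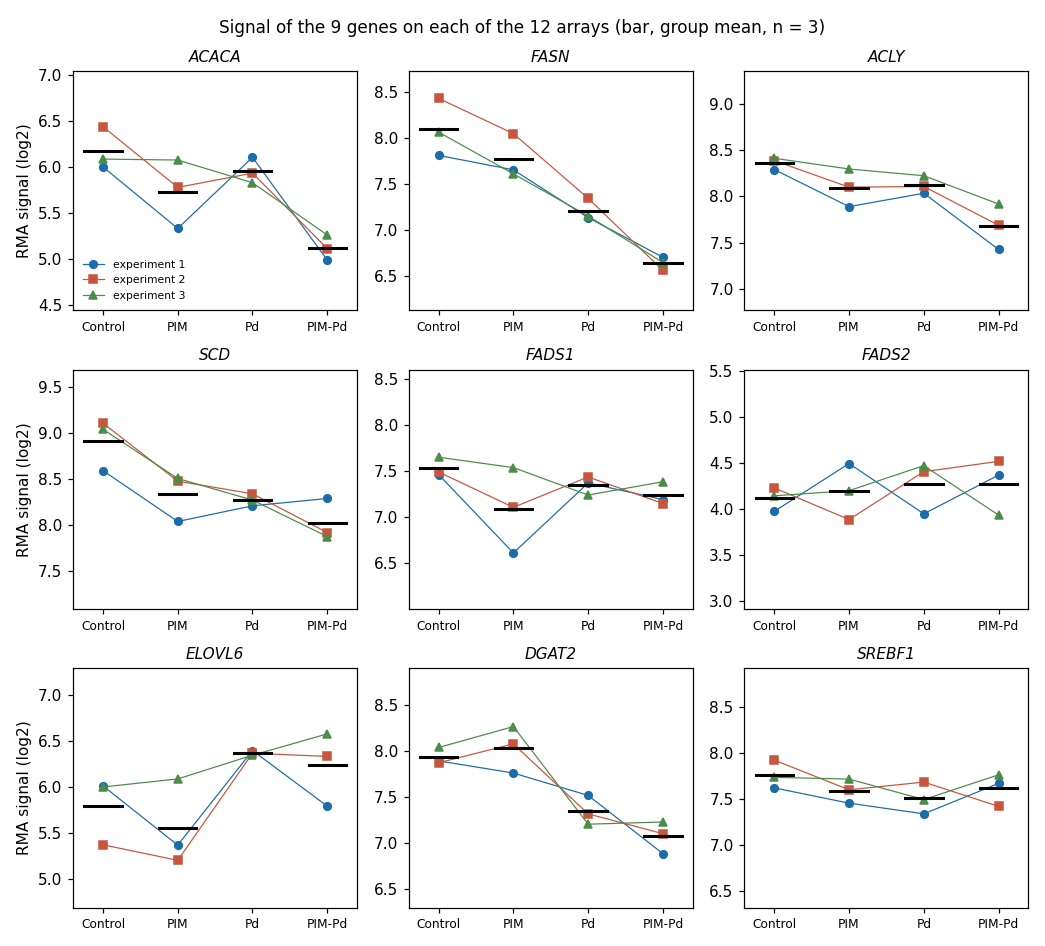
RMA signal (log2, y axis) of each of the 9 genes on each of the 12 arrays, by group (x axis). Symbols and thin lines mark the 3 experiments, black bars the group means (n = 3). *FASN*, *ACACA* and *ACLY* lie lowest in PIM-Pd in every experiment, while the 4 groups of *FADS2* and *SREBF1* overlap.

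In the triple combination the genes of the enzymes that make palmitate, of a desaturase and of a triglyceride enzyme were lower than in Control. *SREBF1* itself was not called. In PIM-Pd against Control, 5 of the 9 genes fell at an adjusted p under 0.05 (limma, Benjamini-Hochberg over all 17710 probe sets), namely *ACACA*, *FASN*, *ACLY*, *SCD* and *DGAT2*, and none rose. Over all probe sets, 5.02% were called lower and 4.42% higher in this comparison. The median difference of the 9 genes was -0.69 on the log2 scale, against 0.01 over all probe sets. The PIM-Pd arrays of 6 of the 9 genes lay entirely below the Control arrays, those of *FADS1* included, as did 12.5% of all probe sets. At a further minimum of 2-fold, 2 of the 9 genes, *FASN* and *ACACA*, were called, against 1.44% of all probe sets.

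*FASN*, the enzyme that assembles palmitate, changed the most of the 9 genes in this comparison. Its log2 signal was 7.81, 8.43 and 8.06 in Control in experiments 1, 2 and 3, and 6.70, 6.56 and 6.64 in PIM-Pd. The PIM-Pd values lay close together, and each was more than a log2 unit below the Control value of its own experiment. The fitted difference was -1.46 ± 0.16 (SE, n = 3 arrays a group), a fall of 63.8% (adjusted p = 4.83e-05), and 13 of the 17710 probe sets had a lower difference.

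*ACACA*, the carboxylase that commits acetyl-CoA to fatty acids, had log2 signals of 6.0, 6.44 and 6.09 in Control and 4.99, 5.11 and 5.26 in PIM-Pd. The groups did not overlap. The difference was -1.05 ± 0.17 (SE), a fall of 51.9% (adjusted p = 0.00128), and within experiments it was -1.01, -1.32 and -0.83.

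*ACLY*, which supplies cytosolic acetyl-CoA, had log2 signals of 8.29, 8.39 and 8.415 in Control and 7.42, 7.69 and 7.92 in PIM-Pd. Its difference of -0.69 ± 0.14 (SE), a fall of 38.0%, was the smallest among the 5 called genes (adjusted p = 0.00497). The 3 experiments differed from each other in the level reached, and all 3 PIM-Pd values were below every Control value.

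*SCD*, the desaturase that makes oleate, had log2 signals of 8.59, 9.11 and 9.04 in Control and 8.29, 7.92 and 7.88 in PIM-Pd. Experiment 1 started lower and fell less, with a within-experiment difference of -0.30 against -1.19 and -1.17 in experiments 2 and 3. The fitted difference was -0.89 ± 0.16 (SE), a fall of 45.9% (adjusted p = 0.00318), and it was called when any single array was left out (adjusted p between 0.00191 and 0.0184).

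*DGAT2*, the acyltransferase of triglyceride synthesis, had log2 signals of 7.89, 7.87 and 8.04 in Control and 6.89, 7.10 and 7.23 in PIM-Pd. These groups were well apart. The difference was -0.86 ± 0.14 (SE), a fall of 45.0% (adjusted p = 0.00135).

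The other 4 genes were not called. *SREBF1* had log2 signals of 7.62, 7.92 and 7.74 in Control and 7.67, 7.42 and 7.76 in PIM-Pd, and the groups overlapped. Its difference was -0.14 (95% confidence interval -0.43 to 0.14, adjusted p = 0.656), and it was below 0 in 1 of the 3 experiments. *FADS1* differed by -0.29 (interval -0.67 to 0.08, adjusted p = 0.411) and was lower in each of the 3 experiments. *FADS2*, its paralogue and neighbour on chromosome 11, had a mean signal at percentile 39.2 of all probe sets, the lowest of the 9 genes, and differed by 0.16 (interval -0.24 to 0.55, adjusted p = 0.748). *ELOVL6* differed by 0.44 (interval -0.06 to 0.94, adjusted p = 0.335), with 1 experiment of 3 in the other direction.

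**Figure D2:**
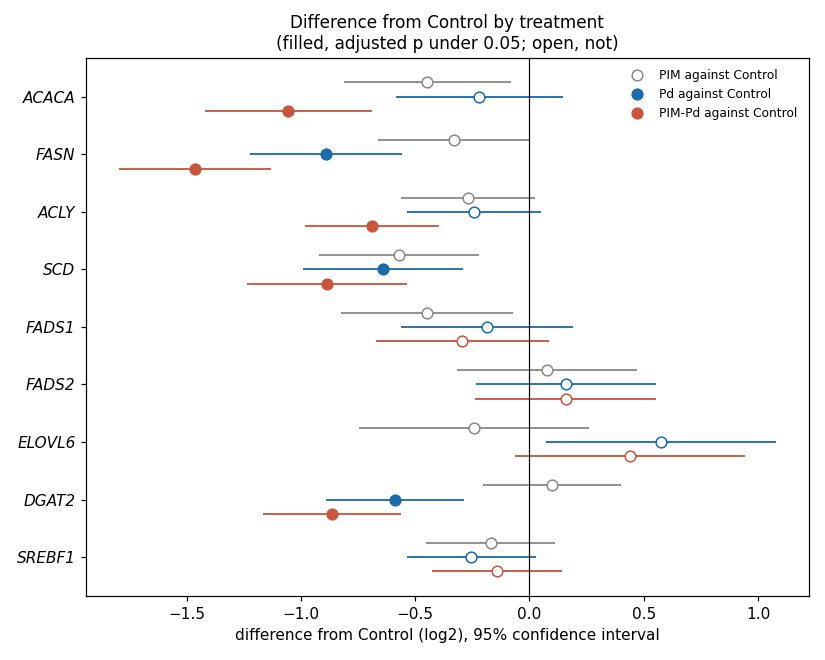
Difference from Control (log2, x axis) of each of the 9 genes in PIM, Pd and PIM-Pd, with 95% confidence intervals from the limma fit on all 12 arrays (n = 3 a group). Filled points passed an adjusted p of 0.05. *FASN*, *SCD* and *DGAT2* were called in Pd and PIM-Pd, *ACACA* and *ACLY* in PIM-Pd, and none in PIM.

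With pomalidomide plus dexamethasone and no PIM447, 3 of the 9 genes, *FASN*, *SCD* and *DGAT2*, were called lower than in Control and none higher (limma, adjusted p under 0.05). The background was 1.94% of all probe sets called lower and 3.48% called higher. The median difference of the 9 genes was -0.24, against -0.01 over all probe sets. The Pd arrays of 5 of the 9 genes (these 3, *ACLY* and *FADS1*) lay entirely below the Control arrays, as did 12.3% of all probe sets. The Control arrays are the same as in the comparison above, so the comparisons with Control are not independent of each other.

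*FASN* had log2 signals of 7.13, 7.34 and 7.15 in the Pd arrays, all below its Control values. It fell by 0.89 ± 0.16 (SE), or 46.1% (adjusted p = 0.00324), and the difference was called when any single array was left out. *SCD* stood at 8.21, 8.34 and 8.27 and *DGAT2* at 7.52, 7.32 and 7.21, both again apart from Control. Their differences were -0.64 ± 0.16 (SE, adjusted p = 0.034) for *SCD* and -0.59 ± 0.14 (SE, adjusted p = 0.0239) for *DGAT2*. These 2 calls were lost in 5 of the 12 fits that left out 1 array. For *SCD* these were the fits without Control replicate 2 or 3 or without any of the 3 Pd arrays, with differences between -0.67 and -0.54 and an adjusted p of up to 0.13. For *DGAT2* they were the fits without any of the 3 Control arrays or without Pd replicate 2 or 3, with differences between -0.62 and -0.52 and an adjusted p of up to 0.119.

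*ACACA* and *ACLY*, called in the triple combination, were not called in Pd. The log2 signals of *ACACA* were 6.11, 5.93 and 5.83 and overlapped with Control, with a difference of -0.22 (interval -0.59 to 0.15, adjusted p = 0.616). *ACLY* stood at 8.04, 8.11 and 8.23, below Control in each experiment, with a difference of -0.24 (interval -0.54 to 0.05, adjusted p = 0.422). *SREBF1* was lower than Control within each of the 3 experiments by 0.28, 0.24 and 0.24, and with a fitted difference of -0.25 (interval -0.54 to 0.03) its adjusted p was 0.366. *FADS1* and *FADS2* differed by -0.19 and 0.16 (adjusted p = 0.71 and 0.775).

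*ELOVL6* had the highest difference of the 9 genes in Pd. Its log2 signals were 6.39, 6.36 and 6.34, above the Control signals of 6.01, 5.37 and 6.0 on every array. The difference was 0.57 (interval 0.07 to 1.08), and it did not pass the adjusted threshold (adjusted p = 0.213). Of all probe sets, 12.4% had Pd arrays entirely above the Control arrays, and *ELOVL6* was the 1 gene of 9 that did.

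**Figure D3:**
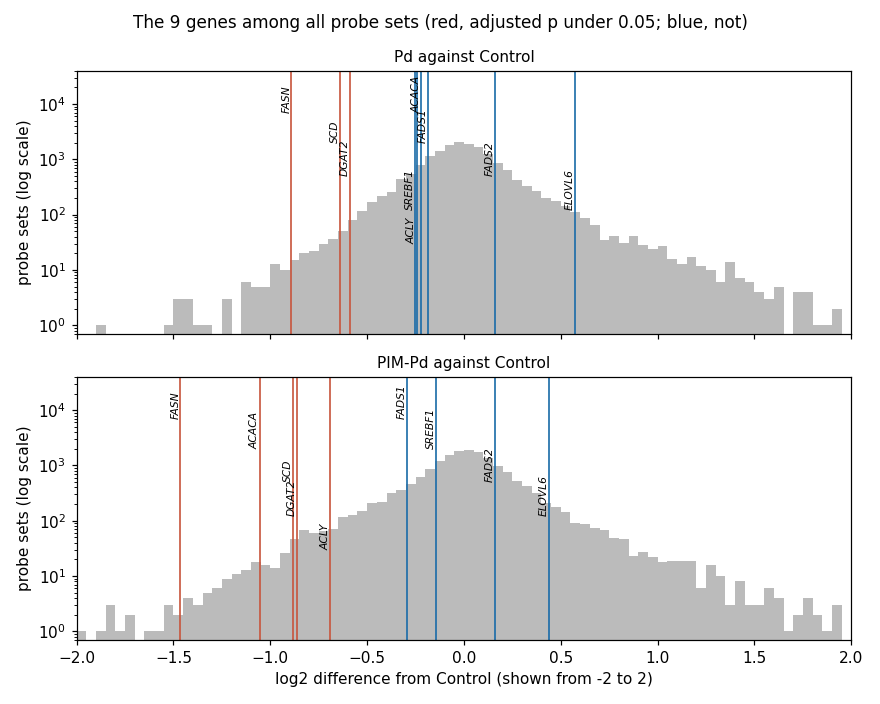
Number of probe sets (y axis, log scale) by difference from Control (log2, x axis) in Pd (upper) and PIM-Pd (lower), with the 9 genes as vertical lines, red where the adjusted p was under 0.05 and blue where not. In PIM-Pd, *FASN*, *ACACA*, *SCD* and *DGAT2* lie in the lowest 1% of all differences and *ACLY* at percentile 2.24.

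PIM447 as a single agent gave no call among the 9 genes, and none among all 17710 probe sets (limma, adjusted p under 0.05; percent called 0). At an unadjusted p under 0.05, 3 of the 9 genes were lower, against 6.2% of all probe sets in either direction. These were *SCD* with a difference of -0.57 (interval -0.92 to -0.22, adjusted p = 0.667), *ACACA* with -0.45 (interval -0.81 to -0.08, adjusted p = 0.749) and *FADS1* with -0.45 (interval -0.83 to -0.07, adjusted p = 0.753). The *SCD* signals of 8.04, 8.48 and 8.51 were all below the lowest Control array, and the within-experiment differences of -0.55, -0.63 and -0.53 were close to each other. Of all probe sets, 4.99% had PIM arrays entirely below Control. *ACACA* at 5.33, 5.78 and 6.08 and *FADS1* at 6.61, 7.11 and 7.54 overlapped with Control, and for both the first experiment gave the lowest PIM signal. Without PIM replicate 1 the difference was -0.25 for *ACACA* and -0.21 for *FADS1*. *FASN* differed by -0.33, *ACLY* by -0.27 and *ELOVL6* by -0.24, while *DGAT2* and *FADS2* differed by 0.10 and 0.08. The *SREBF1* difference was -0.17 (interval -0.45 to 0.11).

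PIM-Pd (10 h) was set against Pd (15 h), 2 groups that differ in PIM447 and in exposure time. None of the 9 genes was called, where 14 of all probe sets were (0.0791%), a count that ranged from 2 (without Pd replicate 3) to 15 when 1 array was left out. At an unadjusted p under 0.05, 3 of the 9 genes were lower, against 8.57% of all probe sets in either direction, and these were the genes of palmitate synthesis. *ACACA* was lower by 1.12, 0.82 and 0.57 on the log2 scale in experiments 1, 2 and 3, with a fitted difference of -0.83 (interval -1.20 to -0.47, adjusted p = 0.102). *FASN* was lower by 0.43, 0.78 and 0.51, with -0.57 (interval -0.90 to -0.24, adjusted p = 0.261), and *ACLY* by 0.61, 0.42 and 0.31, with -0.45 (interval -0.74 to -0.15, adjusted p = 0.35). For these 3 genes the PIM-Pd arrays lay entirely below the Pd arrays, as for 7.79% of all probe sets. The remaining 6 differences lay between -0.27 for *DGAT2* and 0.11 for *SREBF1*. Thus the call of *ACACA* and *ACLY* in PIM-Pd and not in Pd does not show a difference between these treatments at the adjusted threshold.

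In PIM-Pd (10 h) against PIM (24 h), *FASN* and *DGAT2*, 2 of the 9 genes, were called lower, with a background of 2.71% of all probe sets. The groups differ in exposure time as well as in the added pomalidomide and dexamethasone, and these cannot be told apart. *FASN* differed by -1.13 ± 0.16 (SE), a fall of 54.4% (adjusted p = 0.000506). *DGAT2*, at 7.76, 8.08 and 8.27 in PIM, differed by -0.96 ± 0.14 (SE), a fall of 48.7% (adjusted p = 0.000844). The PIM-Pd arrays lay entirely below the PIM arrays for these 2 genes and for *ACACA*, as for 9.35% of all probe sets. The within-experiment *DGAT2* differences of -0.88, -0.98 and -1.04 were alike. With the experiment number of the labels as a block, 4 of the 9 genes were called lower against 3.42% of all probe sets, since *ACACA* at -0.61 (adjusted p = 0.0424, and 0.0521 without the block) and *ACLY* at -0.42 (adjusted p = 0.0329, and 0.0972 without the block) were then called. *ACACA* was also called without PIM replicate 1, at -0.81, and without Control replicate 2, at -0.61. *ELOVL6* was higher in PIM-Pd within each experiment by 0.42, 1.13 and 0.49. Its fitted difference of 0.68 (adjusted p = 0.119) was called without PIM-Pd replicate 1, at 0.90, or without PIM replicate 3, at 0.95. *SCD* differed by -0.31, *FADS1* by 0.16, *FADS2* by 0.08 and *SREBF1* by 0.03, with an adjusted p between 0.369 and 0.963.

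Whether the triple combination departed from the sum of its parts was tested as PIM-Pd minus PIM minus Pd plus Control. None of the 9 genes was called, and none had an unadjusted p under 0.05, while 3 of all probe sets were called (0.0169%) and 5.83% had such a p. The values ran from -0.39 for *ACACA* (interval -0.91 to 0.13) to 0.34 for *FADS1* (interval -0.19 to 0.87), and these intervals are wide beside the differences from Control. Between them lay *DGAT2* at -0.37, *FASN* at -0.24, *ACLY* at -0.18, *FADS2* at -0.08, *ELOVL6* at 0.11, *SREBF1* at 0.28 and *SCD* at 0.33. The 3 calls among all probe sets were lost in each fit that left out 1 array, except those without PIM replicate 2 or PIM-Pd replicate 2. As the treated groups differ in exposure time, this sum compares the groups as they were treated.

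The 9 genes did not vary together as 1 block over the 12 arrays. These correlations are descriptions, as the arrays share groups and normalization. *ACACA* followed *ACLY* most closely (Pearson r = 0.906 over 12 arrays, and 0.635 for the deviations from group means). *FASN* and *DGAT2* had an r of 0.841, and -0.09 for the deviations, so their likeness lay in the group means. *FASN* and *ELOVL6* ran in opposite directions, with an r of -0.67, and -0.68 for the deviations. *SREBF1* was most like *SCD* among the other 8 genes, at 0.616, and least like *FADS2* and *ELOVL6*, at -0.19 and -0.22.

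Among the 1912 other probe sets with a gene name here, those whose pattern was most like *ACACA* over the 12 arrays were *MRS2* (Pearson r = 0.956), *PPAT* (0.943), *MAPKAPK3* (0.935), *IMP4* (0.934) and *AUP1* (0.932). Their deviations from group means, which are part of the r that picked them, correlated with those of *ACACA* at 0.677 to 0.864. Most like *FASN* were *ABCF1* (0.971), *CDK4* (0.966), *PPP6R1* (0.965), *HSPBP1* (0.962) and *SLC7A5* (0.961), with deviations at 0.576 to 0.703. For *SREBF1* the highest values were lower, at 0.767 for *INSIG1*, 0.719 for *SELENOI* and *FLVCR1*, and 0.717 for *ABCB10* and *ARMC6*. The deviations of these genes correlated with those of *SREBF1* at 0.577 to 0.834, not lower than for *FASN*. Names outside the 9 genes come almost only from the gene tables of the study, which list genes it called on these arrays, so these candidates were selected for responding to treatment.

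For the same reason the wider pathway could be described only in part. Of 152 genes in the lists of neighbouring pathways and markers, 29 had a name here, and their changes are not independent evidence of a direction. *SREBF2* and *SCAP* had no named probe set here and were not analysed. *INSIG1*, which holds the SREBP complex in the endoplasmic reticulum and is itself an SREBP target, fell by 0.95 in Pd (adjusted p = 0.00657) and by 0.75 in PIM-Pd (adjusted p = 0.0194). *SLC27A2*, a very long-chain acyl-CoA synthetase, differed by -1.44 and -1.89 in the same comparisons (adjusted p = 0.00103 and 1e-04). *ELOVL5*, an elongase of polyunsaturated chains, differed by -0.42 and -0.49 (adjusted p = 0.0472 and 0.0134). *AUP1*, a protein of the endoplasmic reticulum and lipid droplets, fell by 0.44 in PIM-Pd (adjusted p = 0.0209). *MYC*, a growth transcription factor, fell by 0.85 in PIM-Pd (adjusted p = 0.00204) and differed by -0.44 in Pd (adjusted p = 0.109). *LPIN2*, a phosphatidate phosphatase, rose by 0.61 in Pd (adjusted p = 0.0203) and differed by -0.05 in PIM-Pd. *DGAT1*, the other enzyme of the *DGAT2* step, the citrate enzymes *ACO1* and *MDH1* and the glucose-responsive factor *MLXIP* were called in neither comparison. In Pd they differed by 0.43, 0.67, -0.58 and 0.39 (limma adjusted p = 0.102, 0.0504, 0.127 and 0.0668). In PIM-Pd they differed by 0.02, 0.28, -0.29 and 0.33 (limma adjusted p = 0.974, 0.468, 0.505 and 0.0944). In the cholesterol branch, which the sister factor SREBP-2 drives, 9 of 16 listed genes were named. All 9 were called lower in PIM-Pd, with differences of -1.21 to -0.53, led by *HMGCS1*, against 5.02% of all probe sets. In Pd, 6 of those 9 were called lower, against 1.94% of all probe sets. These 9 have a name because the study called them, so the counts do not describe the whole branch. The other listed genes were not examined. The median difference of the 9 cholesterol genes between PIM-Pd and Pd was -0.07, with none called. That of the 9 fatty acid synthesis genes was -0.25, also with none called.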

How the data were processed

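RNA of MM.1S cells was hybridised by the authors to Clariom S human arrays. The deposited values are log2 signals, 1 column per array, made by the authors with RMA (background correction, quantile normalization and probe set summary) in oligo 1.44.0 under R 3.5.0, with a custom BrainArray definition of 1 probe set per Ensembl gene. RMA compresses differences of dim probe sets, and with 3 arrays a group their number limits the precision. No value was changed and no probe set was filtered out. Groups were taken from the sample titles. limma 3.58.1 in R 4.3.3 was fitted to all 12 arrays with 4 group means (8 residual degrees of freedom, 14.6 after moderation), two-sided, and p-values were adjusted by Benjamini-Hochberg over all 17710 probe sets within each comparison. The procedure was tested on simulated data. SAM, which the study used to call genes, was not run. The labels give the same 3 biological replicate numbers in each group, so the experiment number was also fitted as a block. Deviations from group means correlated at -0.101 to 0.303 (median 0.096) between arrays of the same number. Between other numbers they correlated at -0.351 to 0.203 (median -0.044), so the ranges overlap. The 9 genes were named from the selection rule, and 5 of them are named alike in the gene tables of the study, from which 1909 probe sets took their names and no value. The members, lists and tests were chosen with earlier results of these data known. A difference is given for each of the 9 genes in every comparison except PIM-Pd against Pd, where the genes above an unadjusted p of 0.05 are given as a range. Of the other lists, up to 4 genes per list were named, those with the largest difference among the genes called in PIM-Pd against Control. A part of these is printed. Also named were *INSIG1*, *MYC*, *TSC22D3* and *FKBP5*, and the 5 most correlated with *ACACA*, *FASN* and *SREBF1*. *SREBF2* and *SCAP* were in this rule too, but no probe set had their name here. *LPIN2*, *DGAT1*, *ACO1*, *MDH1*, *MLXIP*, *SGK1* and the blood cell markers were named outside this rule, after their values were seen. Lists on fatty acid oxidation, carboxylase regulation and adipocyte or hepatocyte markers had no named gene. Promoter sequences are from RefSeq, GRCh38.p14.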

Additional observations from a re-analysis of the deposited data

How the results depend on the processing

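The 5 falls in PIM-Pd against Control kept their direction and call under every alternative run, namely the replicate block, leaving out low-signal probe sets, equal array medians, a second quantile normalization, a trended and robust variance, a fit of only the 2 groups compared, and leaving out each array. Requiring at least 2-fold reduced the genes called from 5 to 2 in PIM-Pd against Control, from 3 to 0 in Pd against Control, and from 2 to 1 in PIM-Pd against PIM. With the replicate block the last count was 4, and the block changed no other call among the 9 genes. Leaving out 1 array gave 1 to 3 genes in Pd against Control, 5 in PIM-Pd against Control and 2 to 3 in PIM-Pd against PIM. It turned the sign of differences near 0 that were not called. The ranges were -0.073 to 0.231 (*FADS2*) and -0.015 to 0.237 (*DGAT2*) in PIM against Control, -0.165 to 0.168 (*FADS2*) and -0.307 to 0.086 (*ELOVL6*) in PIM-Pd against Pd, -0.081 to 0.382 (*FADS1*), -0.073 to 0.25 (*FADS2*) and -0.046 to 0.125 (*SREBF1*) in PIM-Pd against PIM, and -0.243 to 0.091 (*FADS2*) and -0.068 to 0.374 (*ELOVL6*) for the departure from additivity. Of the single-gene differences, 311 outside the fits without an array kept their sign and their side of the threshold, and the other 4 passed it, 3 for *ACACA* and 1 for *ACLY* in PIM-Pd against PIM. The cause was not tested. Over all probe sets, the 14 calls in PIM-Pd against Pd became 26 with a trended and robust variance, 8 with a second quantile normalization and 1 in the fit of the 2 groups, and the 1003 calls in PIM-Pd against PIM became 455 in the fit of the 2 groups. Leaving out 1 array gave 0 calls in PIM against Control, 497 to 1049 in Pd against Control (960 with all arrays, and 522, 520, 608 and 497 without Control replicate 1, Pd replicate 1, Control replicate 3 and Pd replicate 3), 1096 to 1771 in PIM-Pd against Control (1671 with all arrays, lowest without Control replicate 3), 2 to 15 in PIM-Pd against Pd (2 to 8 in every such fit except those without PIM replicate 2 or PIM-Pd replicate 2), 648 to 953 in PIM-Pd against PIM (lowest without PIM-Pd replicate 3) and 0 to 3 for the departure from additivity. With the 2-fold minimum, 191 (Pd against Control), 255 (PIM-Pd against Control) and 173 (PIM-Pd against PIM) were called. A fit without an array assumes that the pair that is left varies like the other groups.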
